A study of Mus musculus with 4 samples.

Results

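Small nucleolar RNAs (snoRNAs), small Cajal body RNAs (scaRNAs) and small nuclear RNAs (snRNAs) were examined in small extracellular vesicles from mouse plasma, taken 12 h after myocardial infarction (MI) surgery or sham surgery. The members were the transcripts in the other RNA tables whose gene type is snoRNA, scaRNA or snRNA in GENCODE M21, and there were 60 of them among 411 other RNA features and 1146 features of all tables. By gene type, 28 were snoRNAs, 31 were snRNAs and 1 was a scaRNA. All mice were wild type on a normal diet, and there were 2 MI libraries and 2 sham libraries. The vesicles were harvested by differential centrifugation, and the libraries were made with a QIAseq miRNA kit, which tags each captured molecule with a unique molecular identifier (UMI). The kit selects short RNA, so a UMI stands for a fragment or a short form of the transcript, and where on the transcript it came from was not analysed here. The labels used here state no age, sex or strain. The labels do not say that replicates came from separate animals or whether plasma was pooled, and p-values therefore reflect the spread of these libraries alone, which may be technical.

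C/D box snoRNAs guide ribose methylation and H/ACA box snoRNAs guide pseudouridylation, mostly of ribosomal RNA. A few C/D box RNAs, namely U3, U14 and U8, are needed for cleavage of the ribosomal RNA precursor. ScaRNAs guide the same modifications on spliceosomal RNAs in Cajal bodies. U1 and U2 recognise the 5′ splice site and the branch point of most introns, U12 recognises the branch point of minor introns, and U7 acts in histone mRNA 3′ end processing. These RNAs work in the nucleus as ribonucleoproteins, and many snoRNAs are cut from the introns of genes for ribosomal proteins and other translation factors.

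The first set of sequences below is shown because these RNAs carry the C/D box results described below: the leading U3 copy, the U14 copies, Snord93 with its near copy Mir3096, and Snord118, which was listed after MI alone. They are GENCODE M21 transcripts on GRCm38, written 5′ to 3′. Capitals mark the first TGATGA, which are the C box letters, and the last CTGA, the D box letters. Snord93 and Mir3096 hold no TGATGA. Rnu3b3, the leading copy of U3, lies at chr11:87448627-87448842 on the plus strand, in an intron of Tex14. Snord14c and Snord14d are copies of U14 within Hspa8 at chr9:40803583-40803668 and chr9:40803995-40804080. Snord93 lies at chr5:23852210-23852280, in an intron of 2700038G22Rik, and Mir3096, which the annotation types as a snoRNA despite its name, lies at chr5:23710991-23711061 in an intron of AI506816. Snord118, which is U8, lies at chr11:69073427-69073561 outside other genes.
Rnu3b3: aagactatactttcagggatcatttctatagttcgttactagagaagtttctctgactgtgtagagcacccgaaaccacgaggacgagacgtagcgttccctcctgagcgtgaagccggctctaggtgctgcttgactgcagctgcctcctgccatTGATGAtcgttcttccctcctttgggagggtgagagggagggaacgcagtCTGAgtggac
Snord14c: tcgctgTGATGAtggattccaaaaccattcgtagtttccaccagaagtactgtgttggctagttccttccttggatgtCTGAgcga
Snord14d: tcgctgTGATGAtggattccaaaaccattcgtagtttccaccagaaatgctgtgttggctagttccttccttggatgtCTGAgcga
Snord93: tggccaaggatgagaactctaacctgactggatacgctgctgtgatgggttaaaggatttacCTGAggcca
Mir3096: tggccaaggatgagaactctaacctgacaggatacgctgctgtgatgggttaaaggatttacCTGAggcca
Snord118: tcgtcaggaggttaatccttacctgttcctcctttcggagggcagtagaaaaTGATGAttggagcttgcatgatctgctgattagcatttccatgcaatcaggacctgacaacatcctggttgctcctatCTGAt

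The copies of U14 had 97.7% identity over 86 bases and differed by G47A and A49G, given as the Snord14c base, the position from its 5′ end and the Snord14d base. Snord93 and Mir3096 had 98.6% identity over 71 bases and differed by T29A, with the Snord93 base first. TGATGA was found on the transcribed strand of 18 of the 21 C/D box members, against 26.1% of the 1507 annotated snoRNA transcripts. CTGA was found in 21 of 21, against 79.5% of those transcripts. Those transcripts include H/ACA box RNAs, and the members were classed by symbol or identity, so these shares describe the class alone. A match describes letters and not a working box.

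The second set shows the members of the other classes on which the values below turn. In Rnu1a1, a copy of U1 at chr11:87422867-87423030, capitals mark ACTTACCTG, the letters that pair with the 5′ splice site. In Rnu12 (chr15:83149644-83149794) and Gm24525 (chr5:7177706-7177856, minus strand), capitals mark ATTTTTG, the letters of an Sm site, where the Sm protein ring binds. In Scarna9 (chr9:15326264-15326333, minus strand), a scaRNA with C/D letters, capitals mark TGATGA and CTGA. Snora44, an H/ACA box snoRNA at chr4:132309941-132310069 in Snhg12, has no capitals, because the letters ACA did not stand 3 bases before the end of its annotated transcript.
Rnu1a1: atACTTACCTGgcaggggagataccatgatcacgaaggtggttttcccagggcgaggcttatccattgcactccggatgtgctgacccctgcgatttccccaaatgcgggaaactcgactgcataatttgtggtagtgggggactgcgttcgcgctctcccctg
Rnu12: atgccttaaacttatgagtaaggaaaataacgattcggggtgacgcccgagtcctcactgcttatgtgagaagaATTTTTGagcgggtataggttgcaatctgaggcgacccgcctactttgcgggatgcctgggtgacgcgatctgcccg
Gm24525: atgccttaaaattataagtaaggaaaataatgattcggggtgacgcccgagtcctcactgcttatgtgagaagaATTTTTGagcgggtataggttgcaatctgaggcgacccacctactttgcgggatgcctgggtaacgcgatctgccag
Scarna9: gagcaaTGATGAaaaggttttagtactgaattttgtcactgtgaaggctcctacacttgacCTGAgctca
Snora44: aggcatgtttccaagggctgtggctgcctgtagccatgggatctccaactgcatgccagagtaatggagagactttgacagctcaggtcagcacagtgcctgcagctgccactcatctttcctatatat

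ACTTACCTG was found in 18 of the 19 U1 members, against 3.98% of the 1383 annotated snRNA transcripts. The Sm letters ATTTTTG or ATTTTTTG were found in 7 of the 26 spliceosomal members, against 4.70% of the annotated snRNA transcripts. These were the 5 U2 and 2 U12 members. No U1 member held these exact letters, which does not show that U1 lacks an Sm site. Gm24525 had 96.0% identity to Rnu12 and differed from it at 6 positions, C11A, G16A, C31T, G113A, G137A and C150A, with the Rnu12 base first and positions counted from its 5′ end. ACA stood 3 bases before the end of the other H/ACA member, Snora41, and of 18.3% of the annotated snoRNA transcripts.

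The libraries held 872459 and 606756 UMIs in all tables after MI, against 1523731 and 746567 after sham surgery. Other RNA took 18.9% and 27.8% of UMIs in the MI libraries and 11.5% and 15.3% in the sham libraries. Between 85.8% and 91.7% of the other RNA UMIs in each library came from ribosomal RNA. A feature is listed only where it has at least 10 UMIs, so an unlisted feature means under 10 UMIs and not absence. Levels are given as UPM, UMIs per 1000000 UMIs of all tables, or as UPM of other RNA, where the UMIs of the other RNA table are the denominator. Just under the floor, 9 UMIs correspond to 10.3 and 14.8 UPM in the MI libraries and to 5.91 and 12.1 UPM in the sham libraries. Sham library 1 could thus list weaker members than the others. As a check of the source, red-cell miRNAs summed to 524470 and 502897 CPM (UMIs per 1000000 miRNA UMIs) in the MI libraries and to 445011 and 423911 CPM in the sham libraries. The other blood markers, miR-223-3p and miR-142a-3p, summed to 19711 and 22877 CPM in the MI libraries and to 29419 and 25809 in the sham libraries. The liver miRNA miR-122-5p was at 11253 and 12022 CPM after MI, against 34960 and 35195 after sham surgery. The muscle miRNAs miR-133a-3p and miR-1a-3p summed to 4864 and 5586 CPM after MI, against 1697 and 1271 after sham surgery. The heart miRNA miR-208a-3p was at 534 and 473 CPM after MI and unlisted after sham surgery, and miR-499-5p was unlisted in all 4 libraries. These sums and miR-122-5p and miR-208a-3p differed between the groups, but not every single marker did. Red-cell miR-144-3p was at 265 and 429 CPM after MI and at 395 and 280 after sham surgery. Of the muscle pair, miR-1a-3p was at 1238 and 1197 CPM after MI, against 1026 and 698 after sham surgery. The part of these markers in the values below was not tested.

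The 60 members were a small share of vesicle RNA, and they took a larger part of all UMIs in both MI libraries. They summed to 1065 and 1592 UPM in the MI libraries, against 732 and 680 in the sham libraries. The means were 1328 ± 373 after MI and 706 ± 36.7 after sham surgery (SD, n = 2 each). The groups did not overlap, and the log2 difference was 0.88. An exact two-sided permutation test gave p = 0.33, which is the smallest p that 2 against 2 libraries allow. In UPM, 73.7% of the 114 other RNA features listed in all 4 libraries had both MI libraries above both sham libraries. The median fitted log2 fold change on that scale was 1.57 over all tested features and 0.83 over the tested members. Such a separation was thus not particular to the members. As a share of other RNA the members made up 0.562% and 0.572% of UMIs in the MI libraries and 0.639% and 0.444% in the sham libraries. On that scale the groups overlapped, with a log2 difference of 0.09 (exact permutation p = 1). In bulk vesicles, fewer vesicles of a type and less RNA per vesicle cannot be told apart.

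The MI libraries listed 31 and 39 members and the sham libraries 41 and 25. Only 14 members were listed in all 4 libraries (23.3%), against 100 of the remaining 351 other RNA features (28.5%), while 24 were listed in 1 library alone. The members held 3519 UMIs in all, or 929 and 966 in the MI libraries and 1116 and 508 in the sham libraries. Individual values therefore rest on few UMIs, and the 166 UMIs of Rnu3b3 in MI library 1 carry an exact 95% Poisson interval of 142 to 193, which covers counting error only.

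C/D box RNAs held the most UMIs of any class, with 21 members and 54.8% to 66.8% of the member UMIs in each library. Such shares are of UMIs and are not corrected for transcript length. The C/D members summed to 712 and 872 UPM after MI, against 438 and 374 after sham surgery. The means were 792 ± 113 after MI and 406 ± 45.7 after sham surgery (SD, n = 2 each), with no overlap, a log2 difference of 0.96 and an exact permutation p of 0.33. In UPM of other RNA, the same class stood at 3759 and 3134 after MI and at 3825 and 2439 after sham surgery. These groups overlapped, with a log2 difference of 0.17 (exact permutation p = 1). The C/D class was thus higher after MI as a part of all UMIs, and not separated as a part of other RNA. In UPM, 73.7% of the other RNA features listed in all 4 libraries were likewise higher in both MI libraries.

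**Figure D1:**
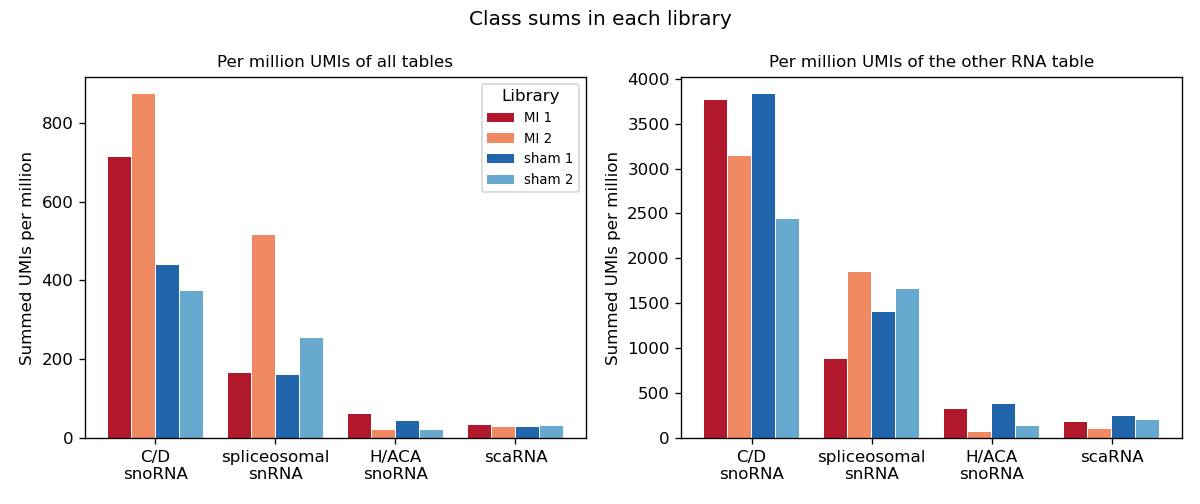
Bars give the summed UMIs per 1000000 UMIs of each class in each library, MI libraries left of sham libraries, with UMIs of all tables as the denominator in 1 panel and UMIs of the other RNA table in the other. C/D box snoRNAs reach 712 and 872 after MI, against 438 and 374 after sham surgery, in the first panel, and the groups overlap in the second.

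U3, which is needed for the early cleavages that release small-subunit ribosomal RNA, was the largest C/D family. Its 6 listed copies, of 16 annotated transcripts with at least 90% identity, held 296 and 294 UMIs in the MI libraries and 236 and 123 in the sham libraries. In UPM they stood at 339 and 485 after MI, against 155 and 165 after sham surgery, with no overlap. The same held for 73.7% of the other RNA features listed in all 4 libraries. The means were 412 ± 103 after MI and 160 ± 6.98 after sham surgery (SD, n = 2 each). In UPM of other RNA, U3 stood at 1792 and 1742 after MI and at 1351 and 1075 after sham surgery. On that scale 42.1% of the features listed in all 4 libraries had both MI libraries above both sham libraries. U3 was also a larger part of the member UMIs after MI than after sham surgery, at 31.9% and 30.4% against 21.1% and 24.2%. How often other families or members separate on that measure was not computed.

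Rnu3b3 alone held 166 and 145 UMIs in the MI libraries and 121 and 70 in the sham libraries. That is 190 and 239 UPM after MI, against 79.4 and 93.8 after sham surgery. For Rnu3b3 both MI libraries thus lay above both sham libraries, as for 73.7% of the features listed in all 4 libraries. Scaled to the UMIs of all tables, its log2 fold change came to 1.31 (SE 0.20), and edgeR's quasi-likelihood test gave an adjusted p of 0.0260 (Benjamini-Hochberg over 219 tested features). Scaled within other RNA, the log2 fold change was 0.11 (SE 0.21), with an adjusted p of 0.922 by the same test over 233 features. On the first scale 29.7% of the tested features were called. The copies summed gave a log2 fold change of 1.36 on the scale of all tables (adjusted p = 0.0303, edgeR). Within other RNA they gave 0.11 (adjusted p = 0.854, edgeR). Fits within other RNA also rescaled each library by a TMM factor. Their fold changes thus differ from those seen in UPM of other RNA, which uses no such factor. Scaled by the UMIs of other RNA alone, the summed copies gave 0.54 (adjusted p = 0.183, edgeR).

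The U3 copies were far from equal although several cannot be distinguished by sequence. Rnu3b1 is identical to Rnu3b3 over 216 bases and also lies within an intron of Tex14. Yet it held 29 and 33 UMIs after MI and 18 and 18 after sham surgery. Rnu3b3 took 49.3% to 56.9% of the family UMIs in each library. The copies also differed in reads per UMI, which stood at 13.4 and 14.3 for Rnu3b3 after MI and 14.5 and 11.8 after sham surgery. For Rnu3b1 it was 3.79 and 4.97 after MI and 1.44 and 4.06 after sham surgery. The labels and tables used here do not state how UMIs were shared among identical copies, so values of single copies are uncertain and the family sums are the safer quantity. The other copies were Gm23927, with 42 and 63 UMIs after MI and 35 and 25 after sham surgery, Rnu3b4, with 22 and 12 after MI and 18 and 10 after sham surgery, and Rnu3b2 and Gm24949, both unlisted in sham library 2.

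**Figure D2:**
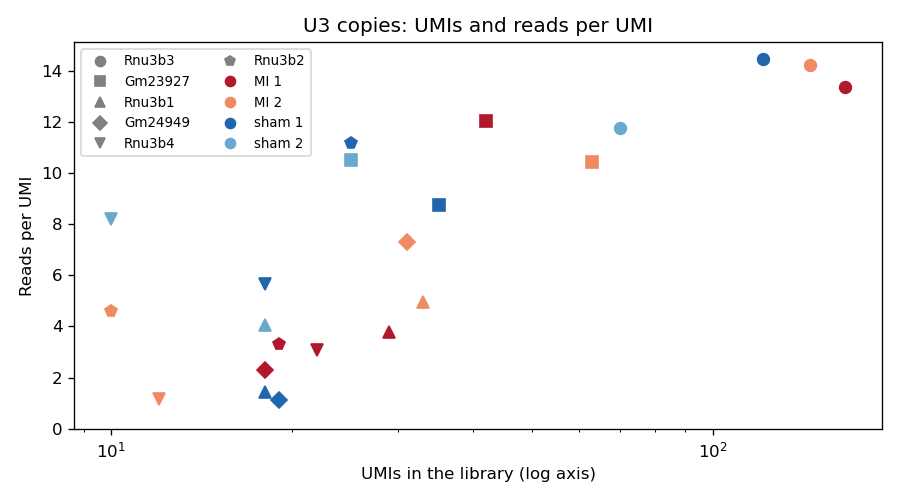
Each point is a listed U3 copy in 1 library, with its UMIs on a log axis and its reads per UMI on the other axis, and colour gives the library. Rnu3b3 lies between 70 and 166 UMIs with 11.8 to 14.5 reads per UMI, while the identical Rnu3b1 lies between 18 and 33 UMIs with 1.44 to 4.97.

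U14, which guides methylation of small-subunit ribosomal RNA and also takes part in its processing, gave a like picture. Snord14c held 66 and 72 UMIs after MI and 48 and 25 after sham surgery, or 75.6 and 119 UPM after MI against 31.5 and 33.5 after sham surgery. Snord14d held 70 and 50 UMIs after MI and 67 and 20 after sham surgery, or 80.2 and 82.4 UPM after MI against 44.0 and 26.8 after sham surgery. For both copies the MI libraries lay above the sham libraries on that scale, as for 73.7% of the features listed in all 4 libraries. By edgeR scaled to all tables, Snord14c rose by a log2 fold change of 1.57 (adjusted p = 0.0484), and Snord14d had 1.19 (adjusted p = 0.118). Within other RNA the log2 fold changes were 0.35 (SE 0.39, adjusted p = 0.765, edgeR) for Snord14c and -0.07 (adjusted p = 0.968, edgeR) for Snord14d. The copies summed gave 0.11 there, and 0.55 (adjusted p = 0.492, edgeR) when scaled by the UMIs of other RNA without TMM factors. Both copies overlap an annotated exon of an Hspa8 transcript, and reads of the 2 genes may be shared there.

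Snord118, the U8 snoRNA that acts in large-subunit ribosomal RNA processing, was listed after MI alone. It held 15 and 11 UMIs in the MI libraries, or 17.2 and 18.1 UPM, and was under 10 UMIs in both sham libraries. With 9 UMIs taken for both sham libraries, the ratio of its mean UPM, MI over sham, was 1.97, counting error aside. With unlisted entries set to 9 UMIs, its log2 fold change within other RNA was 0.16 (adjusted p = 0.899, edgeR). Snord55, another C/D box snoRNA, was also listed after MI alone, with 10 and 17 UMIs, and the like ratio of means was 2.20. Its 11.5 UPM in MI library 1 lay below the 12.1 UPM of 9 UMIs in sham library 2. The libraries were thus not bounded apart. With unlisted entries at 9 UMIs the log2 fold change of Snord55 within other RNA was 0.22 (adjusted p = 0.849, edgeR). Both snoRNAs passed the filter on low counts through the MI libraries alone, so a test against unlisted entries taken as 0 gives no support to a difference.

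Snord93 stood at like levels in both groups as a part of all UMIs. It held 53 and 34 UMIs after MI and 95 and 41 after sham surgery. In UPM that is 60.7 and 56.0 after MI and 62.3 and 54.9 after sham surgery, and the groups overlapped. In UPM of other RNA it stood at 321 and 201 after MI, below 544 and 358 after sham surgery. The log2 fold change within other RNA was -1.22 (SE 0.41, adjusted p = 0.140, edgeR), and -0.01 when scaled to all tables. Scaled by the UMIs of other RNA without TMM factors, the log2 fold change was -0.79 (adjusted p = 0.434, edgeR). Mir3096, its near copy, held 21 and 16 UMIs after MI and 13 and 12 after sham surgery, and miR-3096 was not listed in the miRNA tables. Within a library, the ratio of U3 to the Snord93 pair was 4.00 and 5.88 after MI, against 2.19 and 2.32 after sham surgery. The ratio of U14 to that pair was 1.84 and 2.44 after MI, against 1.06 and 0.849 after sham surgery. Neither ratio overlapped between the groups, and a ratio within a library does not depend on its scaling. In UPM of other RNA the pair itself was lower after MI, at 448 and 296, against 618 and 463 after sham surgery. Ratios of other members to the pair were not compared, so the separation is not shown to be particular to U3 or U14. The ratios of U3 and U14 were chosen after the values were seen, and 2 against 2 libraries allow no exact permutation p below 0.33.

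Other C/D members were fewer. Snord85 held 36 and 22 UMIs after MI and 39 and 20 after sham surgery, or 41.3 and 36.3 UPM after MI against 25.6 and 26.8 after sham surgery. Its log2 fold change was -0.62 within other RNA (SE 0.62, adjusted p = 0.721, edgeR) and 0.56 scaled to all tables, so its sign depends on the scaling. Snord57, from Nop56, whose protein is a core part of C/D ribonucleoproteins, held 23 and 13 UMIs after MI and 23 and 12 after sham surgery. Snord57 overlaps an annotated exon of Nop56, and reads of both genes may be shared. Rnu73b, from the ribosomal protein gene Rps3a1, held 31 UMIs in MI library 1 and was unlisted in MI library 2, against 63 and 26 after sham surgery. Snord123, Snord15b, Snord45c, Snord73a, Snord83b and Snord99 were listed in sham library 1 alone, with 10 to 19 UMIs.

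**Figure D3:**
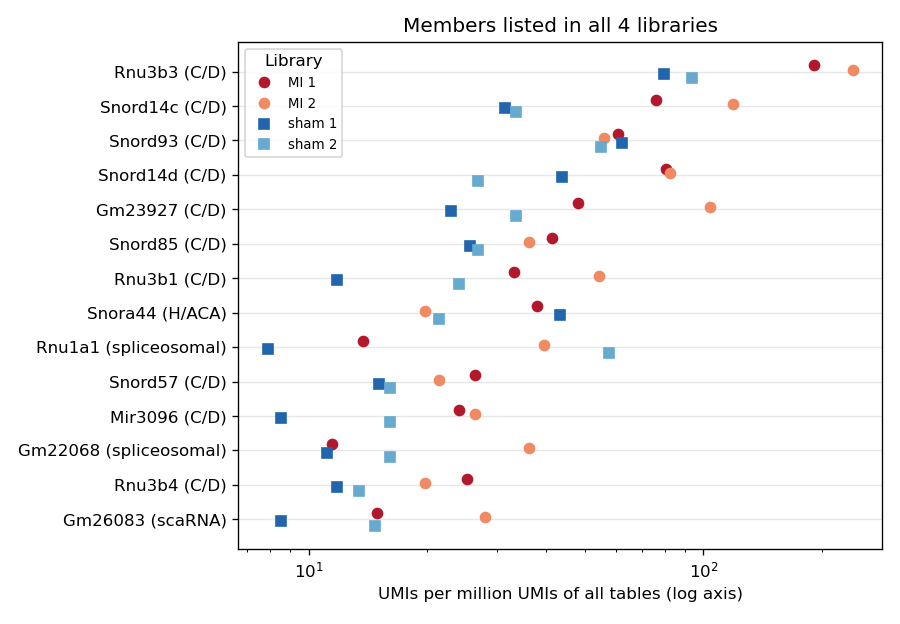
Points give UPM, on a log axis (UMIs per 1000000 UMIs of all tables), for the 14 members listed in all 4 libraries, with circles for MI libraries and squares for sham libraries. For 10 of the 14 (71.4%) both MI points lie right of both sham points, against 73.7% of all 114 features listed in the 4 libraries, while Snord93, Snora44, Rnu1a1 and Gm22068 overlap.

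H/ACA box RNAs had 2 listed members and differed more between replicates than between groups. Snora44 held 33 and 12 UMIs after MI and 66 and 16 after sham surgery, or 37.8 and 19.8 UPM after MI and 43.3 and 21.4 after sham surgery. Its log2 fold change within other RNA was -1.40 (SE 0.85, adjusted p = 0.464, edgeR). Snora44 overlaps an annotated exon of Snhg12, itself listed with 13 UMIs in MI library 2, and reads of both genes may be shared. Snora41, from Eef1b2, was listed in MI library 1 alone, with 20 UMIs. The class summed to 60.7 and 19.8 UPM after MI and to 43.3 and 21.4 after sham surgery, with overlapping groups (log2 difference 0.19, exact permutation p = 1). The ratio of C/D to H/ACA UMIs was 11.7 and 44.1 after MI and 10.1 and 17.4 after sham surgery. The difference of these ratios, 0.77 on the log2 scale, had an exact permutation p of 0.667.

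The scaRNAs were Scarna9, from an intron of Cep295, and Gm26083. Scarna9 held 17 UMIs in MI library 1 and was unlisted in MI library 2, against 30 and 12 UMIs after sham surgery. Gm26083 held 13 and 17 UMIs after MI and 13 and 11 after sham surgery. It overlaps an exon of Snhg20, itself listed with 18 UMIs in MI library 2 and 16 in sham library 1, and reads of the 2 genes may be shared. The class summed to 34.4 and 28.0 UPM after MI and to 28.2 and 30.8 after sham surgery (log2 difference 0.07, exact permutation p = 1). In UPM of other RNA it stood at 182 and 101 after MI, below 246 and 201 after sham surgery (log2 difference -0.72, exact permutation p = 0.33). The 101 of MI library 2 came from Gm26083 alone, and with Scarna9 taken at 9 UMIs the class there was at 154. Of the features listed in all 4 libraries, 12.3% had both MI libraries below both sham libraries on that scale.

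Spliceosomal RNAs had 26 listed members, of which 19 were U1, 5 were U2 and 2 were U12. As a class they summed to 166 and 514 UPM after MI and to 161 and 254 after sham surgery. The groups overlapped, with a log2 difference of 0.53 (exact permutation p = 0.667). The ratio of C/D to spliceosomal UMIs was 4.28 and 1.70 after MI and 2.73 and 1.47 after sham surgery, and replicate 2 was the lower in both groups.

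U1 made most of that class and differed by replicate number. Its copies summed to 124 and 301 UMIs after MI and to 164 and 180 after sham surgery, or 142 and 496 UPM after MI and 108 and 241 after sham surgery. U1 was 13.3% and 31.2% of the member UMIs after MI, and 14.7% and 35.4% after sham surgery. Replicate 2 was thus high and replicate 1 low after both kinds of surgery. The read sets of both replicates 2 share a tag in their names that the labels do not explain, and its part in the values was not tested. Summed over copies, the log2 fold change within other RNA was -0.37 (SE 0.62, adjusted p = 0.836, edgeR). Without MI library 2 it was -1.38 (adjusted p = 0.00534, edgeR), a value that passed the threshold. That fit sets MI library 1, a replicate 1 library low in U1, against both sham libraries, and it takes the spread from the sham pair. Scaled to all tables, the log2 fold change was 0.88 (adjusted p = 0.446, edgeR).

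**Figure D4:**
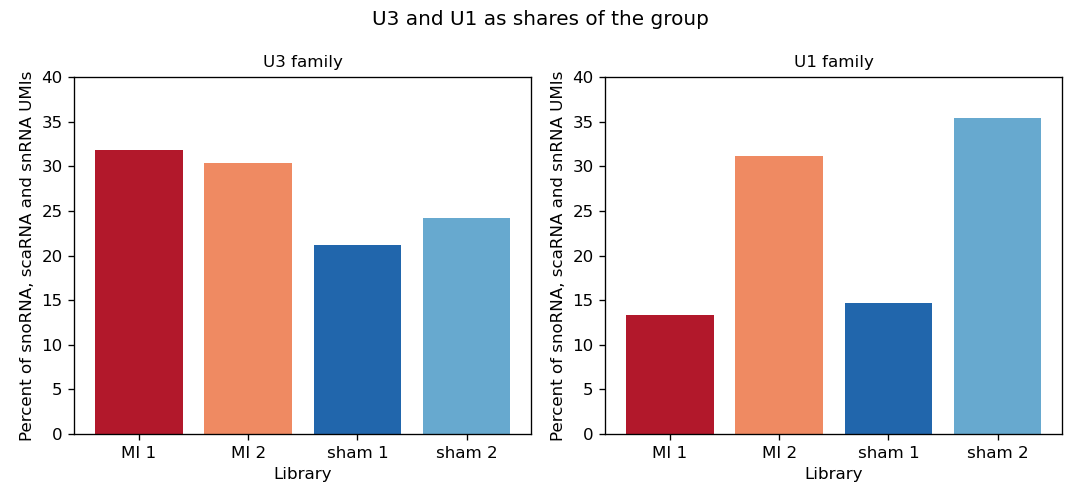
Bars give the percent of snoRNA, scaRNA and snRNA UMIs held by U3 and by U1 in each library, MI libraries left of sham libraries. U3 is at 31.9% and 30.4% after MI and 21.1% and 24.2% after sham surgery, whereas U1 is above 31% in replicate 2 and below 15% in replicate 1 of both groups.

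Of the U1 members, 7 had exactly the sequence of Rnu1a1, itself included, and these held 62 and 137 UMIs after MI and 92 and 101 after sham surgery. Rnu1a1 had 12 and 24 UMIs after MI and 12 and 43 after sham surgery, and its log2 fold change within other RNA was -1.36 (SE 1.12, edgeR adjusted p = 0.633). Gm22068, identical to it and also within an intron of Tex14, had 10 and 22 UMIs after MI and 17 and 12 after sham surgery. Gm24924 was listed after MI alone, with 10 and 17 UMIs. Taking 9 UMIs where unlisted, the ratio of its mean UPM, MI over sham, was 2.20. Its 11.5 UPM in MI library 1 lay below the 12.1 UPM of 9 UMIs in sham library 2. Gm23238 was listed after sham surgery alone, with 20 and 12 UMIs, and the ratio, sham over MI, was 1.16. Its 13.1 UPM in sham library 1 lay below the 14.8 UPM of 9 UMIs in MI library 2. Neither copy was thus bounded apart between the groups. With unlisted entries at 9 UMIs, the log2 fold changes within other RNA were 0.22 for Gm24924 (adjusted p = 0.849, edgeR) and -1.17 for Gm23238 (adjusted p = 0.0831, edgeR). These copies had 99.4% and 97.6% identity to Rnu1a1. The U1 members lay in groups, with 7 at chr12:54696782-54738622 and 5 at chr3:96328425-96488893.

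U2, which pairs with the branch point, was thinly covered. Its copies summed to 21 and 11 UMIs after MI, and to 54 UMIs in sham library 1 with none listed in sham library 2. Rnu2-10, the named copy, was listed in sham library 1 alone, with 15 UMIs. U12 was listed after sham surgery alone, with 27 and 10 UMIs, from Rnu12 (14 UMIs in sham library 1) and Gm24525 (13 and 10 UMIs). With 9 UMIs per MI library, Gm24525 is not bounded away from equality, so no fold is given. Rnu7, the U7 RNA, was listed in MI library 2 alone, with 12 UMIs.

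For 8 members the annotation gives no class, and their closest named transcripts had at most 76.2% identity. Gm25835, in an intron of the translation factor gene Eif4a1, held 36 and 32 UMIs after MI, against 43 UMIs in sham library 1 and none listed in sham library 2. Gm22220, whose closest named transcript was Rnu1a1, held 32 and 21 UMIs after MI, against 28 UMIs in sham library 1 and none listed in sham library 2. The other 6 were each listed in a single library. The member just inside the identity threshold of 90% was the U1 copy Gm25682, at 92.1%.

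Tested within other RNA, no member passed the threshold. edgeR's quasi-likelihood test called 0 of 233 features (percent called 0) and 0 of the 35 members tested. At an unadjusted p under 0.05 it gave 67 features (28.8%), among them 6 members (17.1% of those tested), namely Snord118, Snord55, Gm24924, Gm24525, Gm23238 and Snord93. Of these 6, all but Snord93 were unlisted in a whole group and passed the filter through the other group alone. DESeq2's Wald test called 10 of 411 features (2.43%) and 0 members. Of the 35 members, 13 lay above and 22 below a log2 fold change of 0. Their median was -0.19, beside 0.26 over all features tested. Scaled by the UMIs of other RNA without TMM factors, 20 members lay above and 15 below 0. The members' median was then 0.13, beside 0.67 over all features, so these signs depend on the TMM factors. Fitted values of members unlisted in a whole group depend on the prior count. With unlisted entries set to 9 UMIs the members' median was -0.21, beside -0.08 over all features. Among the members listed in all 4 libraries the log2 fold changes ran from -1.40 to 0.35. By class, 7 of 15 tested C/D members, 4 of 15 spliceosomal members, 0 of 2 scaRNAs and 0 of 1 H/ACA member had a positive value, with a C/D median of -0.07 and a spliceosomal median of -0.56.

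Scaled to the UMIs of all tables, the median over all tested features was 1.57, and that of the 31 members tested was 0.83. On that scale edgeR called 63 features higher and 2 lower (29.7% of 219). Of the members, 3 were called higher, Rnu3b3, Snord118 and Snord14c, and 1 lower, Gm23238, which is 12.9% of those tested. Snord118 and Gm23238 were there tested against a group with no listed UMIs. Among the 114 features listed in all 4 libraries, both MI libraries lay above both sham libraries for 73.7% and below them for 4.39%. The members listed in all 4 gave 10 of 14 above (71.4%) and 0 below, a share near the background. In UPM of other RNA, 42.1% of these features lay above and 12.3% below. On that scale 4 of 14 members lay above (28.6%), Gm23927, Rnu3b1, Rnu3b3 and Snord14c, and 1 below, Snord93.

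**Figure D5:**
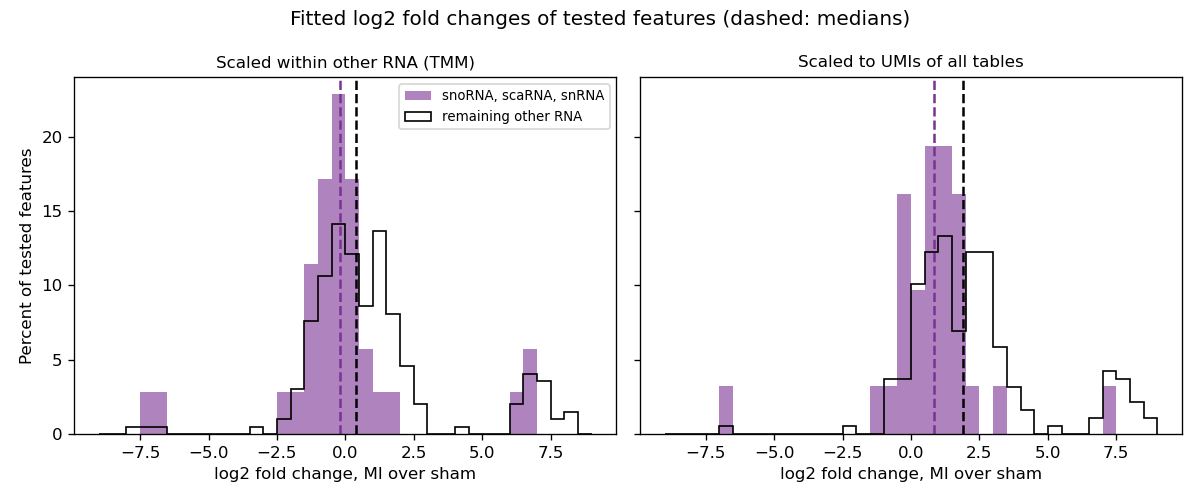
Histograms give the percent of tested features at each fitted log2 fold change, MI over sham, for the members (filled) and the remaining other RNA (line), scaled within other RNA in 1 panel and to UMIs of all tables in the other, with dashed lines at the medians. The members' medians are -0.19 and 0.83 and those of the remaining features 0.39 and 1.90, and values beyond 6 in size belong to features with no UMIs listed in a whole group.

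The classes also differed in where their genes lie. Of the C/D members, 18 of 21 lay inside another gene, against 7 of the 26 spliceosomal members. Of all 36 members inside another gene, 28 lay in a protein-coding gene. These counts give position alone and not whether an RNA is cut from that gene's transcript. They include the U1 and U3 copies within Tex14. The U3 copies Rnu3b1 to Rnu3b4 lay with Rnu1a1 and Gm22068 at chr11:87422867-87471582. An annotated transcript of identical sequence existed elsewhere in the genome for 19 members.

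SnoRNA host transcripts and the RNAs of other ribonucleoproteins were read from a list of 30 names, of which 11 were listed, 6 were tested and 0 were called by edgeR within other RNA. Vaultrc5, the vault RNA, held 954 and 638 UMIs after MI and 1394 and 640 after sham surgery, with a log2 fold change of -0.93 (adjusted p = 0.0951, edgeR). Rny1, a Y RNA bound by Ro60, held 168 and 122 UMIs after MI and 449 and 172 after sham surgery, with -1.65 (adjusted p = 0.0748, edgeR). Rn7s1, the RNA of the signal recognition particle, held 526 and 619 UMIs after MI and 591 and 406 after sham surgery, with -0.40 (adjusted p = 0.411, edgeR). The snoRNA host transcripts Gas5, Snhg12 and Snhg15 were each listed in 1 library, with 10 to 17 UMIs.

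Member molecules were read about as often in each library. Reads per UMI over the members were 11.1 and 10.4 after MI and 12.6 and 10.5 after sham surgery, above the 8.02 and 8.21 after MI and 9.82 and 8.33 after sham surgery of the remaining Ensembl transcripts. Of 136 listed member values, 6 (4.41%) had under 3 reads per UMI, and they belonged to Gm24949, Rnu3b4, Rnu3b1, Mir3096 and Gm22634. Among the remaining features, 101 of 803 listed values (12.6%) did.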

How the data were processed

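Small RNA of plasma vesicles was sequenced in 4 libraries, 2 after MI and 2 after sham surgery, grouped by the labels. The deposited tables hold UMI counts and read counts per feature, as the authors made them, per the file headers. Features under 10 UMIs are not in them. For the aligner, its settings and the genome build of the counting: not given in the sources used here. Total reads were 11872840 to 24626952 per library.

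Members were matched by Ensembl transcript ID to GENCODE M21 (GRCm38), whose transcripts gave the sequences. Classes came from symbols, or from at least 90% identity to a named transcript (Biopython 1.88), a threshold chosen after the data were seen. Members and lists were chosen with earlier results of these data known. Counts were fitted over the whole other RNA table with edgeR 4.0.16 in R 4.3.3 (quasi-likelihood test, TMM, filterByExpr with a minimum count of 10 and total of 15, unlisted as 0), adjusted by Benjamini-Hochberg with a threshold of 0.05. TMM factors were 1.27 and 1.04 for MI and 0.854 and 0.888 for sham, and UPM values do not use them. Class sums were compared by exact permutation tests (scipy 1.17.1). Alternatives included DESeq2 1.42.0, read counts, other scalings and filters, a replicate block and leaving out each library. The fits were also run on data simulated with a smaller dispersion (spread beyond counting error) than the 0.758 fitted here. That run cannot give the error rates for these data. Named members were those listed in all 4 libraries, those listed in both libraries of 1 group alone, the smallest p-values in each direction, any past the threshold and the most abundant of each class, and some others were named after their values were seen. Replicates differed beyond sampling noise (chi-square per degree of freedom 10.9 for MI and 7.10 for sham over 114 features), and each was counted as 1 sample. Columns of unmapped samples numbered 0.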

Additional observations from a re-analysis of the deposited data

How the results depend on the processing

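The log2 difference of the members' sum was 0.88 and of the C/D sum 0.96 in UPM, but 0.091 and 0.17 with other RNA UMIs as the denominator. The scaRNA sum, 0.07, was -0.30 with read counts, 0.38 with unlisted entries at 9 UMIs, 0.87 with members listed in all 4 libraries, -0.72 with other RNA UMIs and -0.49 with total reads as denominators. The C/D over scaRNA difference, 0.89, was 1.29, 0.50 and 0.19 in the first 3 of these. Calls over other RNA, 0 by edgeR scaled within other RNA, numbered 65 scaled to all tables (4 members), 10 with DESeq2, 35 with no low-count filter, 55 where features needed 10 UMIs in both libraries of a group (5 members), 30 with a joint fit over all tables and 38 with unlisted at 9 UMIs. The 55 calls were 25.7% of 214 features tested, and the 5 members were 16.1% of 31. Those members were Snord118, Snord55, Gm24924, Gm23238 and Gm24525. Each was unlisted in a whole group and passed that filter through the other group alone, so these calls give no support to a difference. The causes of the changes in the number of calls were not tested. Log2 signs reversed for Snord85 (0.56 scaled to all tables, 0.36 in the joint fit), Rnu1a1 (0.24 without sham library 2), U3 (-0.039 without MI library 2, -0.024 without sham library 2), U14 (-0.19 without sham library 2) and U1 (0.017 by library size alone, 0.88 scaled to all tables, 0.65 in the joint fit, 0.082 without MI library 1 and 0.077 without sham library 2). Leaving out each library in turn gave 0 to 0 calls among single features (the summed U1 family passed without MI library 2, as given above), and ranges of 0.59 to 1.17 for all members, 0.81 to 1.11 for C/D, -0.62 to 1.00 for H/ACA, -0.07 to 0.22 for scaRNA, -0.28 to 1.35 for spliceosomal, -0.18 to 1.73 for C/D over H/ACA, 0.59 to 1.18 for C/D over scaRNA and -0.24 to 1.10 for C/D over spliceosomal. U1 ranged from -1.38 to 0.082, U14 from -0.19 to 0.49, U3 from -0.039 to 0.24 and Rnu1a1 from -2.20 to 0.24. A replicate block gave 0 calls and 40 features at an unadjusted p under 0.05. Same-numbered libraries deviated together with r = 0.37 over 114 features, but 2 pairs do not show that the numbers pair the samples. Values of members under about 20 UMIs are limited by depth and by the listing floor.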
